A study of Mus musculus with 5 samples.

Results

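The heart of wild-type mouse pups at postnatal day 2 was described from 3 Charme WT pools, chosen by their genotype label out of the 5 RNA-seq libraries of the series. Each pool held 9 hearts of C57BL6/J littermates, taken at postnatal day 2 and combined before extraction of RNA for polyA libraries, and their labels name no treatment or transgene. The other 2 libraries came from hearts carrying an insertion in Charme, a muscle long noncoding RNA, and were not analysed here. The labels do not give the sex of the pups, and a pool averages over its hearts, so that the spread between pools is not the spread between animals.

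A mouse heart at this age lies between the fetal and the adult state. Cardiomyocytes still divide for a few days after birth, fetal sarcomere proteins such as slow skeletal troponin I and β myosin heavy chain give way to the adult forms, and the fuel changes from glucose and lactate to the fatty acids and ketone bodies that milk supplies. Working heart muscle is rich in mitochondria, and endothelial cells, fibroblasts, pericytes, an epicardial layer and a few resident immune cells surround the cardiomyocytes.

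The depth was 20145610, 17181107 and 18178960 gene-assigned fragments in pools 1 to 3, and 14374 of 49671 genes had at least 10 counts in at least 2 of the 3 pools. Levels are given as FPKM, the TMM-normalized CPM divided by the length of the gene's merged exons in kilobases, in pools 1, 2 and 3 in that order, and as mean ± SD over n = 3 pools. The median of the 14353 kept genes with a known length was 4.27 FPKM, and 11658 genes reached 1 FPKM on average. No pool was a copy of another, since across genes the logged levels of 2 pools correlated at r = 0.985 to 0.989, whereas counts differed by 18.03 to 30.78 times the chi-square that sampling alone would give. With 1 group of 3 pools no comparison between conditions exists, and all values below are descriptions without a test.

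Transcripts of the respiratory chain and the contractile apparatus were the most abundant. The 10 genes with the most fragments took 15.04% ± 0.485 (SD, n = 3) of all counted fragments, and the 100 with the most took 31.9% ± 1.09. Genes of the mitochondrial genome alone took 11.1%, 10.8% and 10.8% of the fragments in pools 1 to 3. The 28 genes of a list for the sarcomere and the Z-disc, the plate that anchors actin filaments, took another 8.48%, 8.88% and 7.63%. Long noncoding genes together held 0.803% ± 0.0350, of which H19, an imprinted RNA of fetal tissues, made up 0.300% ± 0.0163 of all fragments. Among the 28 genes above 1000 FPKM, 25 were protein-coding and 1 was long noncoding.

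Leading the order was mt-Co1, the catalytic subunit of cytochrome c oxidase, at 26905, 26257 and 25629 FPKM (mean 26264 ± 638). Next came mt-Nd1, a complex I subunit, at 21337 ± 3884 FPKM, and mt-Cytb, of complex III, at 16154 ± 1793. Both of these were below their predecessor in every pool. The gene after these, Gm23935, is annotated as a microRNA gene of only 57 bases, shorter than a read, so its 11348 ± 4344 FPKM is not comparable with the others.

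By FPKM over merged exons, cardiac α-actin (Actc1) was the most abundant nuclear protein-coding gene, at 5899, 9894 and 5768 FPKM. Pool 2 stood 1.72-fold above pool 3 for this gene, while pools 1 and 3 nearly coincided. The ventricular regulatory light chain Myl2 followed at 4404 ± 664 FPKM and the fatty acid carrier Fabp3 at 3948 ± 646. Fabp3 exceeded the next gene, α myosin heavy chain (Myh6, 2433 ± 252 FPKM), in every pool. Myh6, the essential light chain Myl3 (2417 ± 321), myoglobin (Mb, 2352 ± 401) and cardiac troponin C (Tnnc1, 2291 ± 473) could not be placed in an order beyond the spread between pools. The order of these nuclear genes depends on the length assigned to each. By fragments Myh6 was above Actc1, at a mean of 16364 against 11628 CPM. Myl2 has 1950 bases of merged exons but a longest transcript of 889, where Actc1 has 1618 and 1473. Further down stood the ATP/ADP carrier Slc25a4 at 1929 ± 163, phospholamban (Pln), the brake on the calcium pump, at 1582 ± 219, adult troponin I (Tnni3) at 1389 ± 196 and muscle creatine kinase (Ckm) at 1236 ± 165 FPKM. Of the general growth machinery, the translation factor Eef1a1 reached 2036 ± 143 FPKM and the ribosomal protein Rplp1 1834 ± 286. H19 was nearly level across the pools, at 1179, 1267 and 1211 FPKM. Of the 25 neighbouring pairs in the order from the most abundant gene down, only 6 kept their order in all 3 pools with a mean log2 difference larger than its SD.

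**Figure D1:**
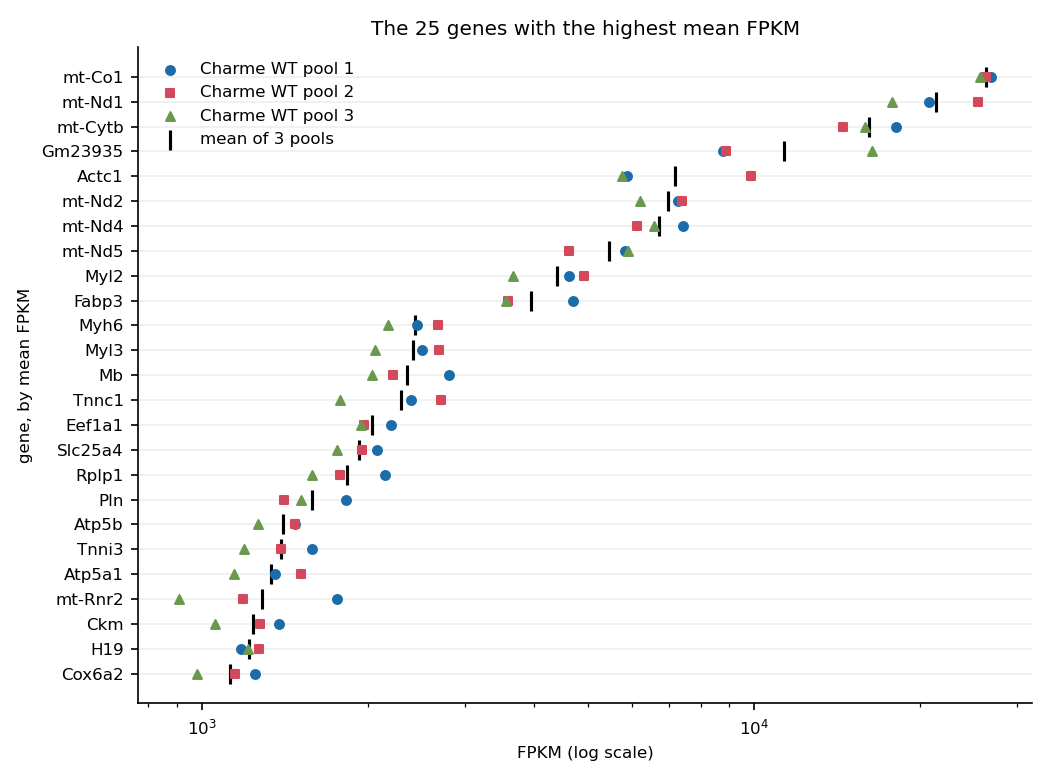
FPKM (log axis) of the 25 genes with the highest mean, 1 symbol per Charme WT pool and a bar at the mean of 3 pools. 7 of the 25 are genes of the mitochondrial genome, led by mt-Co1 at a mean of 26264 FPKM, and the symbols of Actc1 separate because pool 2 reads 9894 against 5899 and 5768.

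Not all mitochondrial genes could be read at face value. Among the 13 protein-coding genes of that genome, mt-Co1, mt-Nd1, mt-Cytb, mt-Nd2, mt-Nd4 and mt-Nd5 had means from 26264 FPKM down to 5457 for mt-Nd5, while mt-Co2 was at 249, 421 and 125 FPKM and mt-Co3 at 157, 267 and 71.0 FPKM. The subunits of 1 oxidase were thus far apart in counted level. Of all stretches of 150 bases, the read length, in the transcript of mt-Co2, 99.4% also occur letter for letter in a transcript of another locus, and the share was 99.8% for mt-Co3, 99.4% for mt-Atp6, 97.0% for mt-Nd3 and 98.0% for mt-Nd4l. It was 0% for mt-Nd1, mt-Cytb, mt-Nd2 and mt-Nd5, 23.6% for mt-Co1 and 59.2% for mt-Nd4. It was 0% also for mt-Nd6 and mt-Atp8, which were nevertheless at only 65.6 ± 6.06 and 47.7 ± 6.81 FPKM. Of the exon bases of mt-Atp8, however, 21.1% are also exons of mt-Atp6 on the same strand, and fragments on overlapping genes are not counted. The leading matches of the 5 genes with high shares are pseudogenes that lie side by side on chromosome 1, between bases 24611535 and 24616197 of GRCm38. Only uniquely mapped fragments were counted, so a fragment wholly inside such a stretch was not counted for any of them, and the levels of these 5 genes are uncertain.

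The same 5 genes passed a 2-fold spread between the highest and the lowest pool, each highest in pool 2 and lowest in pool 3. For mt-Nd3 the spread was 4.82-fold. The chromosome 1 copies Gm28437 and Gm10925 had 1486, 1190 and 1751 counts and 1318, 1307 and 1891 counts, with the most in pool 3, and 6 of 7 copies in that stretch had their highest CPM there. The part of the shared sequence in the spread of the 5 genes was not tested.

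Isoforms were mostly those of adult heart or striated muscle, with a minor share of the others that differed by protein family. The 29 pairs examined came from sarcomere, calcium, metabolic, globin and other families. Most set a fetal or widely used gene against its counterpart of adult heart or striated muscle. Some, such as Myl7 and Myl2, set an atrial against a ventricular gene. Others have no adult muscle form as second gene, namely the embryonic and adult globins, Nppb with Nppa and Lmnb1 with Lmna. The second gene was above the first in all 3 pools in 24 pairs, the globins and Nppb with Nppa among them. The first was above in all 3 pools in 3 pairs and the order was mixed in 2. In 13 pairs, globins included, the first gene held less than 10% of the FPKM of the pair in every pool.

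For myosin heavy chain, Myh7, the slow β form of the fetal ventricle, was at 929.6, 422 and 654 FPKM and the fast α form Myh6 at 2447, 2677 and 2174. The Myh7 share of the pair was therefore 27.5%, 13.6% and 23.1% (mean 21.4% ± 7.11). Pool 2 had the lowest Myh7 and the highest Myh6, so that its share was below those of the other pools by more than their distance from each other. Troponin I behaved more evenly. Tnni1, the slow skeletal form that the fetal heart uses, held 36.3%, 34.5% and 36.1% of its pair with Tnni3, a mean of 35.6% ± 0.968. The length assigned to a gene moves that share, to 29.03% with the longest transcript and to 49.1% without any scaling by length.

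Skeletal α-actin (Acta1) was at 22.9, 58.1 and 23.6 FPKM, under 1% of its sum with Actc1 in every pool. Smooth muscle α-actin (Acta2), which embryonic cardiomyocytes also make, was at 241, 731 and 256 FPKM. Both were highest in pool 2, as Actc1 was, and their pools 1 and 3 lay close together. The spread was 2.54-fold for Acta1 and 3.03-fold for Acta2. Skeletal calsequestrin (Casq1) had the same shape, at 11.2, 29.7 and 12.3 FPKM, whereas the cardiac form Casq2 did not, at 438, 481 and 366. Markers of smooth muscle other than Acta2 did not share it either, with Tagln at 32.0, 26.5 and 29.3 FPKM and Myh11 at 3.37, 2.61 and 3.84.

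Genes known as atrial held the minor share of their pairs. Myl7, the atrial regulatory light chain, was at 603, 328 and 636 FPKM and held 10.9% ± 4.32 of its sum with Myl2, and the atrial essential light chain Myl4 held 4.21% ± 0.625 of its sum with Myl3. Sarcolipin (Sln), the atrial relative of phospholamban, was at 32.6, 8.96 and 34.7 FPKM, or 1.54% ± 0.824 of its sum with Pln. Myl7 and Sln were both lowest in pool 2 and Myl4 was not, at 96.9, 111 and 107 FPKM. Cacna1h, the T-type calcium channel gene linked to the fetal ventricle, held 35.2% ± 3.48 of its sum with the L-type gene Cacna1c. These shares also depend on gene length. The Myl7 share was 5.30% with the longest transcript and 3.59% from raw counts, and raw counts gave 9.05% for Myl4, 0.744% for Sln and 20.1% for Cacna1h.

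**Figure D2:**
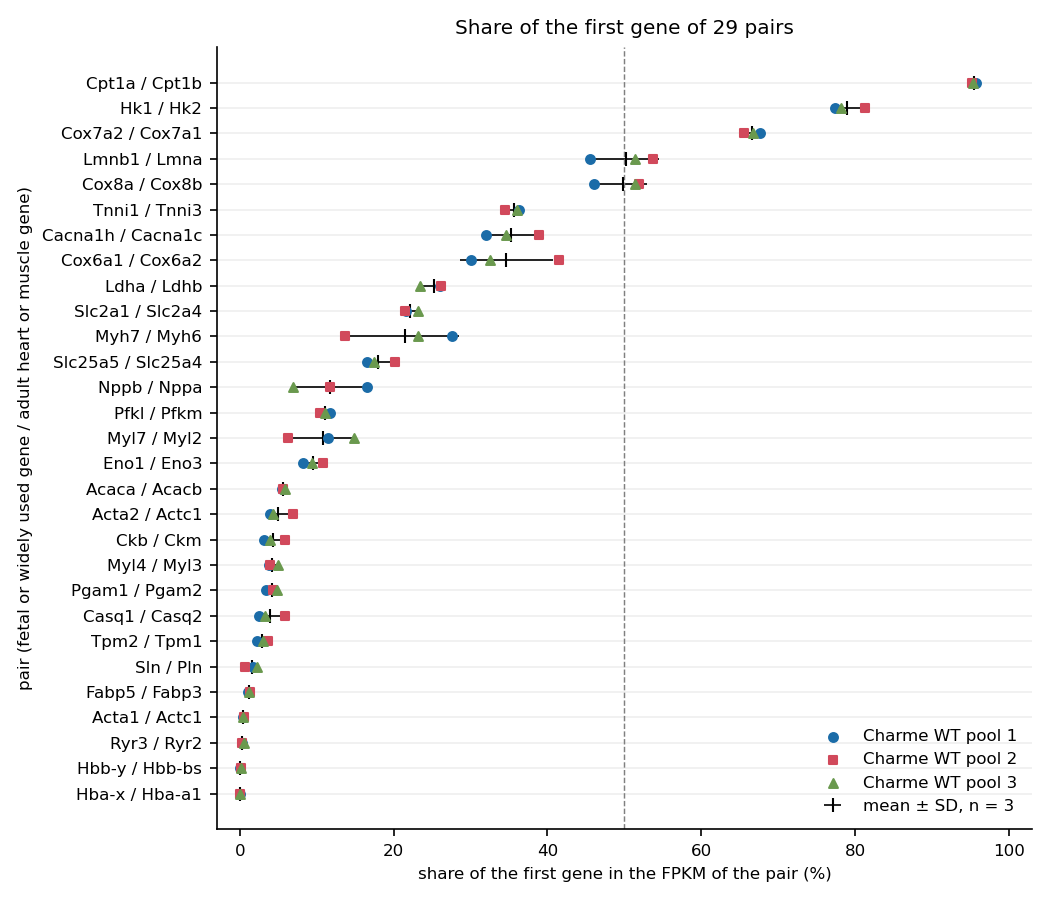
Share in percent of the first gene in the summed FPKM of each of 29 pairs, with 1 symbol per Charme WT pool and the mean ± SD of 3 pools in black. Most pairs lie left of the dashed line at 50%, and the pools part most visibly for Myh7 and Myh6, at 27.5%, 13.6% and 23.1%.

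The contractile genes were also looked up for the CArG box, the 10-base site of serum response factor, a regulator of muscle and actin genes. It was searched by name, in its strict form of 10 letters, which reads alike on both strands, within the 250 bases before each gene start in RefSeq's GRCm38.p6 promoters. Of the 28 sarcomere and Z-disc genes, 23 had such a window, and 7 of these held a box, 30.4%. The share was 1.44% of the 10742 nuclear kept genes with a window, 8.22% of the 73 with a window among the 100 most abundant nuclear genes, and 1.47% of all windows. These 7 are printed because they carry that share, with the box in capitals and 10 bases either side.

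Actc1 (chr2:114052903-114052932, minus strand): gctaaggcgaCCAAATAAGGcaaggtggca
Acta1 (chr8:123894829-123894858, minus strand): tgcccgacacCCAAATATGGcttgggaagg
Myl3 (chr9:110763583-110763612, plus strand): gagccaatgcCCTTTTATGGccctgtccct
Myl7 (chr11:5898824-5898853, minus strand): ccattcctctCCTTATTTGGgcctctgggt
Ldb3 (chr14:34588697-34588726, minus strand): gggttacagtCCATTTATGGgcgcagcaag
Myom1 (chr17:71019448-71019477, plus strand): gccttcctggCCATAAAAGGctggctgtgg
Nebl (chr2:17462999-17463028, minus strand): gctcccatctCCTAAATTGGctggaaatgc

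A box did not go with a high level within the list. The 7 genes ranged from 20.7 ± 3.39 FPKM for the thin filament protein Nebl to Actc1 at 7187 ± 2345, with a median of 163 FPKM, against 715 for the 16 genes without a box. Actc1, Acta1 and Myl3 were highest in pool 2, 3 of the 7 with a box against 6 of the 16 without, while Myl7, Ldb3 and Nebl, with a box, were lowest there. A match describes letters in a window and not a bound site.

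Markers of cardiomyocytes, fibroblasts, endothelial and mural cells were all detected, in that order by list median. In bulk RNA, fewer cells of a type and less RNA per cell cannot be told apart, and lists hold genes of unequal abundance, so their medians do not measure shares of cells. All 16 genes of the pan-cardiomyocyte list were above 1 FPKM, and its median was the highest of the cell type lists. All 14 fibroblast genes were, with a median of 47.6 FPKM, led by the collagen Col3a1 (165 ± 17.0 FPKM) and gelsolin (Gsn, 158 ± 13.2). All 14 endothelial genes passed too, with a median of 31.8 FPKM, the fatty acid transporter Cd36 at 273 ± 41.8 and vascular cadherin Cdh5 at 80.0 ± 13.2 FPKM. Smooth muscle and pericyte genes had 14 of 14 above 1 FPKM and a median of 12.3, with the pericyte gene Rgs5 at 59.9 ± 9.68 FPKM. Within cardiomyocyte genes the ventricular list stood at a median of 379 FPKM and the atrial list at 9.79. The atrial list was led by Nppa, atrial natriuretic peptide, at 713, 1328 and 1109 FPKM, which the perinatal ventricle makes as well.

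Smaller compartments were nearer to the threshold. Endocardial genes had a median of 3.76 FPKM, with 9 of 11 above 1 FPKM, and the transcription factor Hand2, also a gene of cardiomyocytes, at 59.4 ± 3.49. Of the conduction system list 5 of 12 genes reached 1 FPKM, among them the pacemaker channel Hcn4 at 1.99 ± 0.358 and the transcription factor Tbx3 at 1.83 ± 0.267 FPKM. The lymphatic list had 5 of 8 above 1 FPKM, with Prox1, a gene that cardiomyocytes also express, at 11.3 ± 0.642. Macrophage genes had 10 of 14 above 1 FPKM, with the complement gene C1qb at 35.1, 16.7 and 25.1 FPKM. The valve interstitial list had 7 of 11 genes above 1 FPKM and a median of 2.31, led by the tendon factor Scx at 7.36 ± 0.209. Fewer genes reached 1 FPKM in the Schwann and neuronal list, 3 of 14 with a median of 0.359, and in the B cell list, 1 of 9 with a median of 0.1504. Mast cell proteases were readable at 10.7 ± 4.49 FPKM for Cma1 and 12.8 ± 4.81 for Tpsb2.

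Adult globins were the main transcripts of blood. Adult β-globin Hbb-bs was at 989, 563 and 693 FPKM and adult α-globin Hba-a1 at 317, 292 and 279.9. These values are uncertain between near-identical copies, since 58.7% of the 150-base stretches of Hbb-bs and 48.4% of those of Hba-a1 occur in another globin gene. Embryonic globins were nearly silent, with Hbb-y at 0.516 ± 0.175 FPKM, Hba-x at 0.136 ± 0.0705 and Hbb-bh1 with 0, 1 and 0 counts. The nuclear erythroid regulator Gata1 was at 0.0657 ± 0.0178 FPKM.

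Genes known from neighbouring tissues were few and low. None of the 16 T cell and thymus genes reached 1 FPKM on average, and the highest, Trbc2, had 6, 4 and 15 counts. Of 18 skeletal muscle genes, 4 reached 1 FPKM, namely Ckm and Acta1, which the heart also expresses, the fast troponin I gene Tnni2 at 3.87 ± 1.02 and the fast light chain Mylpf at 1.66 ± 0.734. The skeletal regulators Myod1, Myf5, Myf6 and Pax7 had no count in any pool, which for Myod1 allows at most 0.0952 FPKM (3 counts in the shallowest pool, counting error only). Ucp1, the uncoupling protein of brown fat, had 77, 0 and 0 counts, and the airway genes Scgb3a2 and Sftpc had 71, 0 and 1 and 20, 1 and 2 counts. Nearly all of these counts were in pool 1, where Scgb3a2, the highest of them, stood at 4.13 FPKM. Albumin (Alb), of the liver, was instead highest in pool 2 with 19, 82 and 15 counts, while Ahsg, another liver gene, was lowest there with 307, 104 and 276.

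**Figure D3:**
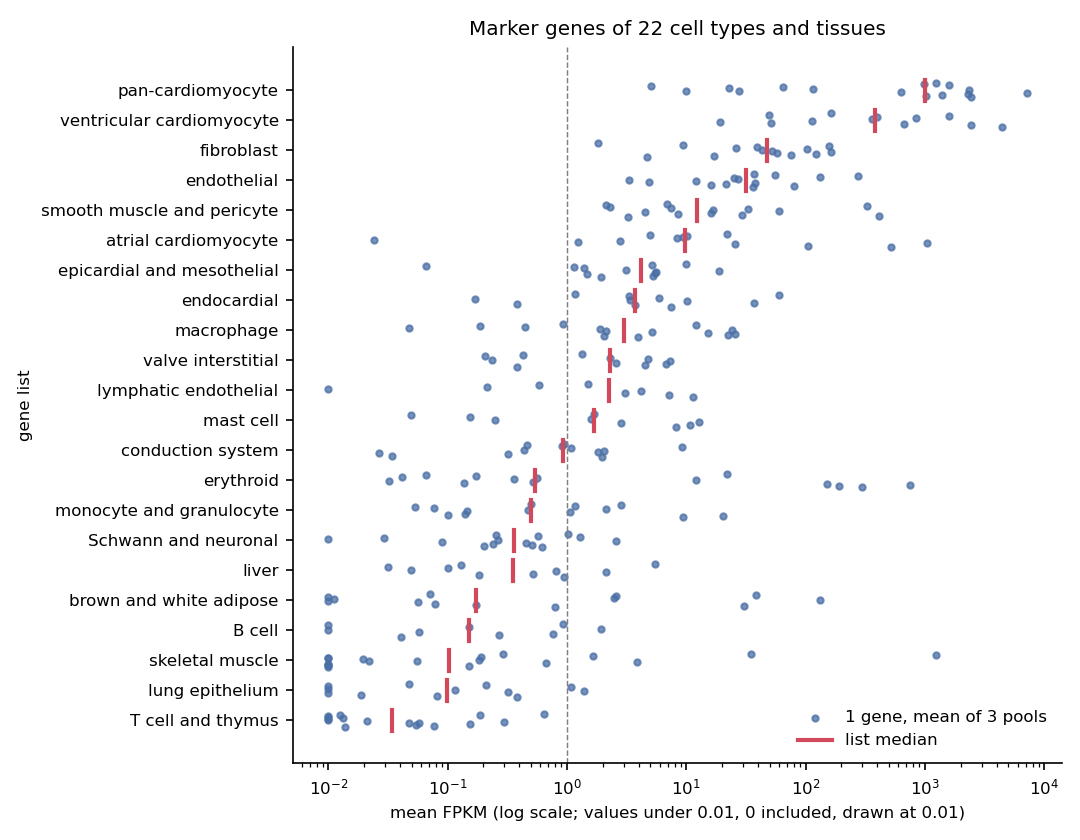
Mean FPKM over 3 pools (log axis, values under 0.01 drawn at 0.01) of each gene in 22 cell type and tissue lists, 1 point per gene, with the list median as a bar and a dashed line at 1 FPKM. The pan-cardiomyocyte and ventricular lists lie highest, with a median of 379 FPKM for the ventricular list, and the T cell and thymus list lies wholly below the line.

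Energy genes differed in level by pathway, as list medians without a test. The nuclear genes of complexes III to V of the respiratory chain had a median of 455 FPKM over 38 genes, and those of complex I 182 FPKM over 36 genes. The tricarboxylic acid cycle followed with a median of 167 FPKM over 22 genes, all above 30 FPKM, led by Idh2 at 916 ± 83.9 and Mdh1 at 758 ± 105. Fatty acid uptake and oxidation had a median of 75.4 FPKM over 34 genes, glycolysis 41.8 over 26, ketone body and branched-chain amino acid use 26.1 over 16 and lipid synthesis 11.2 over 15. In glycolysis 1 of the 25 kept genes spread 2-fold between the pools. In the respiratory, tricarboxylic acid, fatty acid oxidation and lipid synthesis lists none did, where 8.77% of all kept genes did. Among the 11872 genes with a mean of at least 50 counts only 3.32% did, so that these short lists give no more than a count.

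Within fatty acid oxidation, the β-oxidation enzymes Acaa2 (875 ± 197 FPKM), Acadl (643 ± 24.5) and Acadvl (335 ± 78.5) followed Fabp3. Acaa2 was at 1099, 728 and 799 FPKM and Acadvl at 417, 260.4 and 327, both highest in pool 1 and lowest in pool 2. Carnitine palmitoyltransferase, the entry step of long-chain fatty acids, was represented by the liver-type gene Cpt1a at 17.9, 16.8 and 20.2 FPKM. The muscle-type gene Cpt1b had only 53, 48 and 64 counts, which placed the Cpt1a share at 95.4% ± 0.267. Of the exon bases of Cpt1b, 81.4% are also exons of Gm44502, a same-strand gene of GENCODE M21 that the deposited counts do not list by that identifier. Fragments on overlapping genes are not counted, and whether the annotation used for the counts held an overlap at Cpt1b was not tested, so that share is uncertain. Of the nuclear receptors and coactivators that control these genes, Ppara was at 2.60 ± 0.823 FPKM and Ppargc1a at 14.1 ± 1.67.

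In glycolysis, Gapdh (832 ± 160.2 FPKM), the heart-type lactate dehydrogenase Ldhb (823 ± 85.8) and the muscle enolase Eno3 (729.8 ± 114) were highest. Muscle and heart forms dominated most enzyme pairs. Ldha held 25.2% ± 1.49 of its sum with Ldhb, Pfkl 11.1% ± 0.668 of its sum with Pfkm, Eno1 9.50% ± 1.29 of its sum with Eno3 and Pgam1 4.17% ± 0.766 of its sum with Pgam2. These shares move with the length assigned to each gene. With the longest transcript Eno1 held 20.01%, and from raw counts Eno1 held 24.5%, Pgam1 9.29%, Pfkl 19.9% and Ldha 41.5%, all still below their partners on average. Eno1 and Pgam1 share 49.0% and 37.9% of their 150-base stretches with other loci and may be undercounted. The exception was the first step, where the widely used hexokinase Hk1 held 78.9% ± 2.10 against Hk2. For glucose entry, the insulin-responsive carrier Slc2a4, at 27.8, 38.3 and 26.2 FPKM, was above the fetal carrier Slc2a1, at 7.69, 10.4 and 7.86, in every pool.

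Cytochrome oxidase subunit pairs differed in which gene was higher. Cox6a1, the liver-type form, held 30.0%, 41.5% and 32.5% of its sum with the heart-type Cox6a2. Cox7a2 exceeded the heart-type Cox7a1, with 66.6% ± 0.996, and Cox8a and Cox8b were level at 49.8% ± 3.20 for Cox8a. In the ADP/ATP carriers the fetal form Slc25a5 held 18.02% ± 1.92, and for creatine kinase the brain-type Ckb held 3.13%, 5.87% and 3.87% of its sum with Ckm. Cox6a1, Ckb and Slc25a5 each had their highest share in pool 2.

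Oxct1, the key enzyme of ketone body use, was highest in pool 2, at 61.7, 94.3 and 49.3 FPKM. In the glycogen list, led by Gyg (182 ± 11.6 FPKM), the primer of glycogen synthesis, and the muscle phosphorylase Pygm (173 ± 12.9), 2 of 13 genes spread 2-fold, against 8.77% of all genes. These were Ppp1r3c, a targeting subunit of a phosphatase, at 28.6, 21.05 and 42.7 FPKM and the kinase subunit Phkg1 at 0.534, 0.218 and 0.428, both lowest in pool 2.

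**Figure D4:**
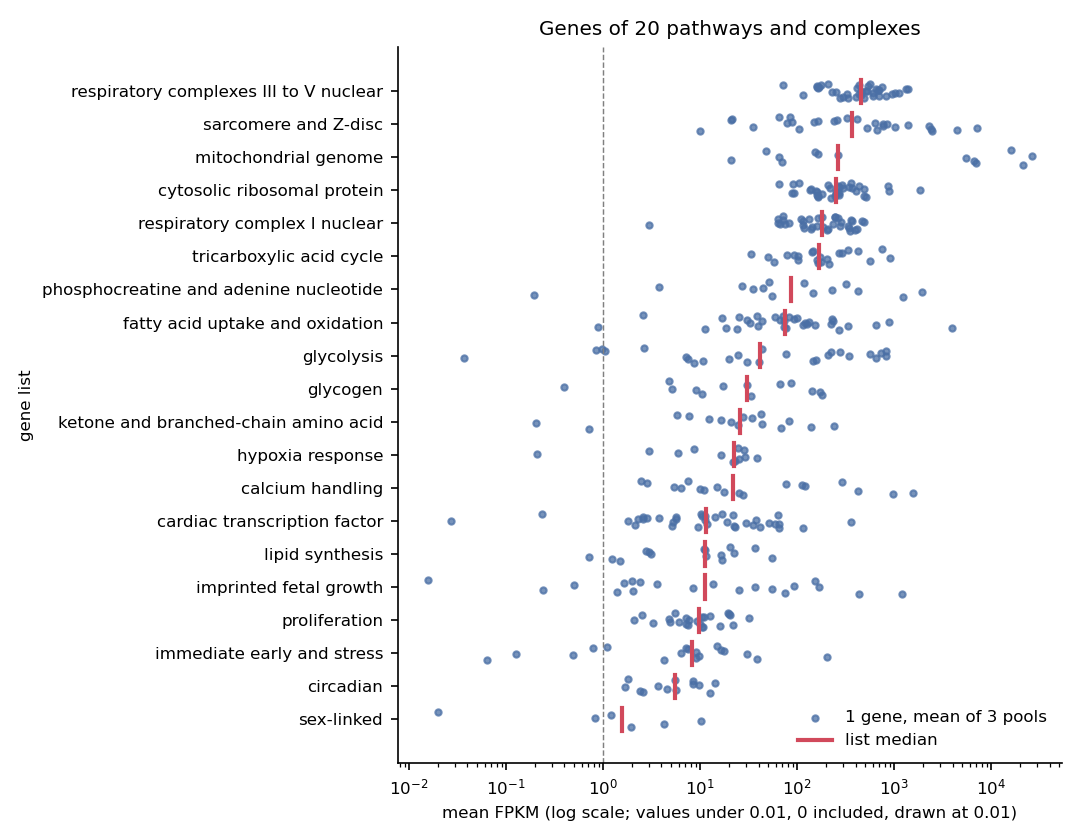
Mean FPKM over 3 pools (log axis, values under 0.01 drawn at 0.01) of each gene in 20 pathway and complex lists, 1 point per gene, with the list median as a bar. Respiratory complexes III to V (median 455 FPKM) lie above the tricarboxylic acid cycle (167), fatty acid oxidation (75.4) and glycolysis (41.8), and the mitochondrial genome list splits into 6 genes from a mean of 5457 FPKM upward and 7 genes from 265 FPKM downward.

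Growth and division genes were active in every pool. All 24 genes of the proliferation list were above 1 FPKM, with a median of 9.71 FPKM, led by the replication clamp Pcna at 31.8 ± 3.45 and the mitotic cyclin Ccnb2 at 21.4, 30.1 and 14.4 FPKM. Relative to each gene's mean, the list median was 0.00 in pool 1, 0.32 in pool 2 and -0.39 in pool 3 on the log2 scale, where the median of all kept genes lay within 0.01 of 0 in each pool. The list of imprinted fetal growth genes had a median of 11.1 FPKM, with 17 of 20 genes above 1 FPKM and Phlda2, a placental growth gene, at a mean of 0.0156. Its higher members included Igf2, the fetal insulin-like growth factor, at 393, 456 and 445 FPKM and Mest at 167 ± 46.5. Of the cardiac transcription factors, 34 of 36 were above 1 FPKM. None of the 35 kept spread 2-fold, against 8.77% of all genes and 3.32% of those with a mean of at least 50 counts. Nkx2-5 was at 116 ± 12.4 FPKM, Gata4 at 64.9 ± 4.74 and the thyroid hormone receptor Thra at 63.1 ± 1.81, while Isl1, of early heart progenitors, had 3, 1 and 2 counts.

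The spread between pools was small for most genes. The median biological coefficient of variation, the square root of edgeR's gene-wise dispersion, was 0.147, and it fell from 0.2504 in the fifth of genes with the fewest counts to 0.119 in the fifth with the most. Of 14374 genes, 1260 (8.77%) differed at least 2-fold between their highest and lowest pool. Pool 2 was the lowest in 640 genes, 4.45% of those compared, pool 1 was the highest in 554 (3.85%) and pool 2 in 378 (2.63%). Among 10641 protein-coding genes with a mean of at least 1 FPKM and 50 counts, where counting error is smaller, 244 passed 2-fold, and pool 2 was the lowest in 153 of them.

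Among the 25 of these genes with the largest spread, pool 2 was the lowest in 20 and pool 1 the highest in 18. Genes listed for the epicardium and the mesothelium, the sheet that lines the pericardium and covers the heart, made up the clearest group, with 5 of the 25. In the list of 12 epicardial and mesothelial genes, 8 spread at least 2-fold against 8.77% of all genes, each highest in pool 1, and 7 of the 8 were lowest in pool 2. Complement C3 was at 20.5, 1.86 and 7.61 FPKM, the uroplakin Upk3b at 10.5, 1.46 and 3.90, and mesothelin (Msln) at 10.2, 1.81 and 4.55. Without pool 2 the count fell to 4, over the 2 pools left. Some markers of neighbouring tissue had the same order of pools, among them the lung epithelium list, at a sum of 8.10, 0.943 and 1.91 FPKM. Of its 12 genes, 3 were at 0 in every pool and 2 above 1 FPKM. The sums of the liver list, led by Ahsg, and of the brown and white adipose list had this order too. The adipose sum, 238.4, 188.5 and 194.5 FPKM, was mostly Fabp4 at 152, 115 and 129. Fabp4 is also on the endothelial list, so that sum says little about fat. Other markers did not share it. The T cell and thymus list had its highest sum in pool 3, and the skeletal muscle list, led by Ckm, its lowest there. Alb, of the liver list, was highest in pool 2. The counts of Ucp1 were all in pool 1, and those of Scgb3a2 and Sftpc nearly all. Their part in the spread of the mesothelial genes was not tested.

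The transcription factors and the enzyme that define the embryonic epicardium did not move with them. Wt1 was at 1.73, 1.93 and 2.17 FPKM, Tbx18 at 5.25, 5.57 and 5.95, and the retinoic acid enzyme Aldh1a2 at 17.4, 22.2 and 16.8. In all, the summed level of the 12 genes was 85.4 FPKM in pool 1, 42.3 in pool 2 and 50.8 in pool 3. Other genes of the 25 with the same order of pools were the matrix protein Efemp1 at 3.52, 0.493 and 1.55 FPKM, Igfbp6, which binds insulin-like growth factors, at 9.48, 1.54 and 3.78, the galectins Lgals3 and Lgals4, and the chemokine Ccl2. The carboxylesterase Ces1d, at 2.22, 0.175 and 1.98 FPKM, had the largest spread of all, 12.7-fold, and it was near the same level in pools 1 and 3.

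Some genes of immune and atrial cells, though not all of their lists, were also low in pool 2. The summed level of the macrophage list was 147, 85.2 and 115.9 FPKM, and that of the mast cell list 53.3, 29.1 and 32.7. That of the monocyte and granulocyte list was instead lowest in pool 3, at 50.35, 37.09 and 27.27 FPKM. In this list 5 of 10 kept genes spread 2-fold, against 8.77% of all genes. The lowest was pool 1 in 1 of them, pool 2 in 2 and pool 3 in 2. Of the macrophage genes kept, 4 of 12 spread 2-fold, the complement genes C1qb and C1qc with pool 2 lowest, and Cd163 and Fcgr1 with pool 1 lowest. In the mast cell list 1 of 7 did, and in the atrial list 2 of 11, where 8.77% of all genes did, so that these short lists give no more than a count. The atrial genes were Sln (3.87-fold) and Stard10 (2.20-fold), both with pool 2 lowest. Sbk3, a kinase gene not on the list but among the 25, was at 2.50, 1.22 and 4.16 FPKM. The summed level of the atrial list, led by Nppa, was instead lowest in pool 1, at 1505, 1825 and 1955 FPKM. Endothelial and fibroblast lists had no gene past 2-fold. What these lists have to do with the other genes low in pool 2 was not tested.

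**Figure D5:**
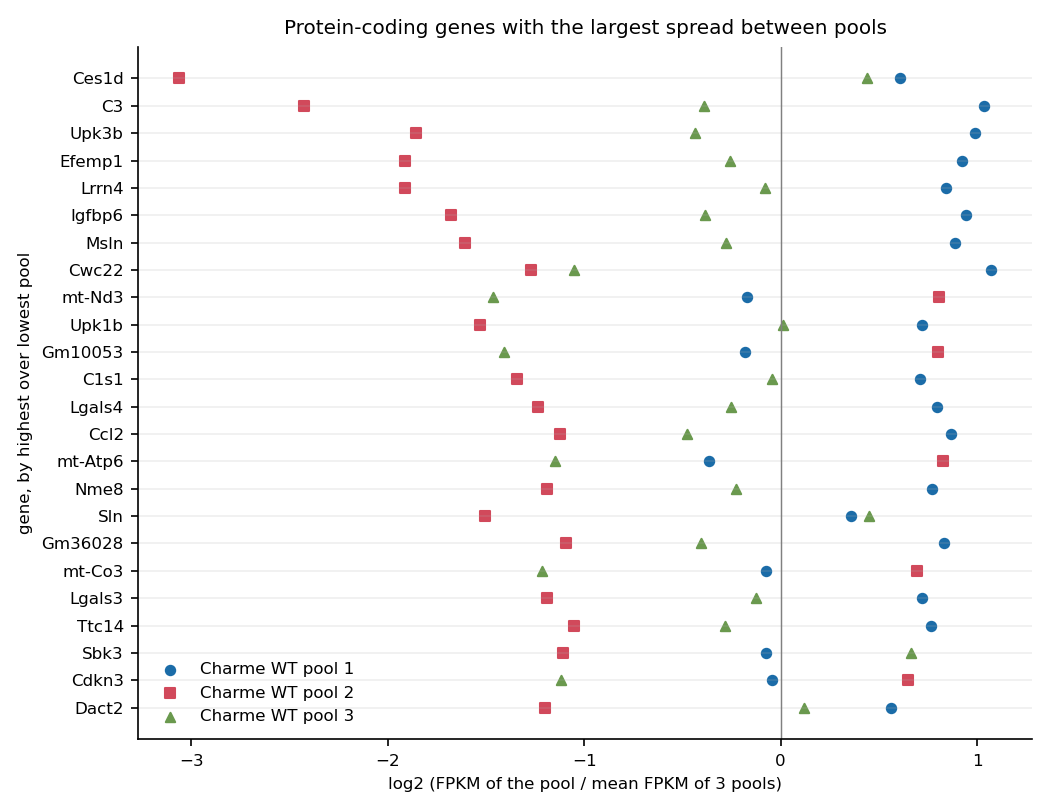
Level of each pool relative to the mean of the 3 pools (log2 of the FPKM ratio) for protein-coding genes among the 25 with the largest ratio of the highest to the lowest pool. Pool 2 is the leftmost symbol except in mt-Nd3, mt-Atp6, mt-Co3, Gm10053 and Cdkn3, where pool 3 is the leftmost and pool 2 the rightmost.

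In the remaining 5 of the 25 genes pool 2 was the highest and pool 3 the lowest. They were mt-Nd3, mt-Atp6 and mt-Co3, with the shared sequences described above, Gm10053, which shares 81.2% of its 150-base stretches with other loci, chiefly the cytochrome c gene Cycs, and the cell cycle phosphatase Cdkn3 at 2.80, 4.53 and 1.33 FPKM. Next outside the 25 was mt-Co2 with a spread of 3.38-fold, against 3.39-fold for the last inside.

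Charme itself varied as much. The transcript, which the files name without a gene identifier or length, had 810, 183 and 276 counts, or 41.4, 10.8 and 14.5 CPM (mean 22.3 ± 16.7), a spread of 3.83-fold with pool 1 highest. Its gene-wise coefficient of variation was 0.320, against the median of 0.147.

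Transcripts of both sexes were present in each pool. Xist, the RNA of the inactive X chromosome in females, was at 2.83, 1.09 and 1.91 FPKM, and the Y-linked genes Eif2s3y and Ddx3y were at 12.9, 7.31 and 10.6 and at 4.27, 3.03 and 5.39 FPKM. Uty and Kdm5d were at 1.20 ± 0.243 and 0.822 ± 0.195 FPKM. Xist spread 2.61-fold, while the 4 Y-linked genes spread between 1.51-fold and 1.78-fold, and all 5 were lowest in pool 2. Tsix, the antisense partner of Xist, had 6, 1 and 0 counts.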

How the data were processed

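RNA was sequenced from pooled whole hearts, and the 3 Charme WT libraries were grouped by the genotype in their labels. The authors trimmed paired reads with Cutadapt and Trimmomatic, aligned them to GRCm38 with STAR and deposited the raw count of uniquely mapped fragments per gene of Ensembl release 87, by strand, without normalization. A deposited FPKM table, with decimal commas, was not used here. Gene types, positions and lengths came from GENCODE M21 on GRCm38, matched for 49411 of 49671 genes by identifier. Charme had no length and is given as CPM only.

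TMM factors and gene-wise dispersions came from edgeR 4.0.16 in R 4.3.3, with DESeq2 1.42.0 as an alternative, over genes that reached 10 counts in 2 or more pools. FPKM used merged exon lengths. Recovery of the dispersion was tested on simulated data. Exact stretches of 150 bases shared between loci were searched in GENCODE M21 transcripts, both strands. A spread is the highest over the lowest pool. Genes were named by rule: the 25 with the highest mean FPKM, all genes of the 29 pairs, the 3 highest of each of 42 lists, the 25 protein-coding genes with the largest spread among those with a mean of at least 1 FPKM and 50 counts, Charme and the sex-linked genes. Not all of these are printed, 1 gene that the rule names is not reported here, and other list members were named after their values were seen. The members, lists and rules were chosen with earlier results of these data known. Depth was 17181107 to 20145610 fragments, and floors of 3 counts cover counting error only, since the reads carry no molecular identifiers. Whether pools came from separate litters is not given in the sources used here, so SDs measure the spread between these pools. Alternatives were other size factors, lengths, filters and thresholds, and each pool left out.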

Additional observations from a re-analysis of the deposited data

How the results depend on the processing

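No paired analysis was possible because only 1 group was described and no groups were compared. DESeq2 size factors or total counts in place of TMM gave 1265 and 1310 genes with a 2-fold spread instead of 1260, and shares within a pair do not depend on them. The count of genes with a 2-fold spread was set by filter and threshold, at 3555 with no filter, 394 with a mean of at least 50 counts, 3606 at 1.5-fold and 365 at 3-fold. The highest of 2 pools cannot exceed the highest of 3, so the count can only fall when a pool is left out. Pool 2 was the lowest in 640 of the 1260 genes and the highest in 378. With 1 pool left out the count was between 457 and 789, lowest without pool 2. For the epicardial and mesothelial list, an alternative chosen after seeing the data, it was between 4 and 8. The share of fragments in the 10 most counted genes was 8.69% of nuclear fragments without mitochondrial genes. The Tnni1 share was 29.03% with the longest transcript and 49.1% from raw counts, and the number of pairs with the first gene above in all pools was between 3 and 5 with 1 pool left out, highest without pool 1. Over the 29 pairs, the longest transcript moved 13 shares and raw counts 18 by more than 1 SD. The 25 most abundant genes kept 20 members with the longest transcript and 24 or 25 with 1 pool left out, also chosen after seeing the data. The median coefficient of variation was between 0.137 and 0.165 over its alternatives. The deposited FPKM table was not run, and lists that rest on few counts are limited by depth.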

Other observations

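Immediate early genes, which respond within minutes to handling, were readable in all pools. Jund was at 205 ± 25.5 FPKM (SD, n = 3), Jun at 38.9 ± 8.47 and Fos at 7.05, 3.04 and 2.71, so that Fos was highest in pool 1. Of the 17 genes of that list kept, 4 spread at least 2-fold, against 8.77% of all genes. Of these 4, 3 were highest in pool 1, as were 554 of the 1260 genes past 2-fold in all. Of 13 clock genes of the light and dark cycle, 3 spread 2-fold, each with another pool lowest. Dbp, a clock output factor, was at 8.66, 19.9 and 13.7 FPKM and Nr1d1, a clock repressor, at 8.71, 13.9 and 6.44, both highest in pool 2, while the clock activator Arntl was at 2.37, 1.14 and 1.57, lowest there. The time of day at which each pool was taken is not given in the sources used here, and its part in these values was not tested.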
